A study of Drosophila melanogaster with 4 samples.

Results

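The X chromosome carried 212 of the 1113 DREF peaks in mitotic Kc167 cells and 343 of the 1937 DREF peaks in total Kc167 cells. A peak belonged to the set when its deposited row gave X as the sequence, so position decided membership and no measured value did. Binding was mapped by chromatin immunoprecipitation with a rabbit polyclonal antibody against DREF, followed by sequencing (ChIP-seq). Of 4 libraries, 2 came from cells labelled mitosis and 2 from cells labelled total, all from Kc167 cells grown in serum-free CCM3 medium. The sources used here do not say how cells in mitosis were collected. Kc167 is a single line of embryonic origin with a female karyotype, so the values describe that line and not a tissue. The authors deposited 1 peak list per condition, which gives each peak a position and a score of unstated unit. There are no values per library and no read counts, so depth is unknown, no library can be set against another, and differences between the conditions carry no test. Intervals below are exact Clopper-Pearson 95% intervals unless named otherwise, they cover counting error only, and they treat neighbouring peaks as independent.

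DREF, the DNA replication-related element binding factor, is a zinc finger protein of the BED type that binds a short palindromic element found in the promoters of many genes for DNA replication and cell growth. It is known to act at core promoters together with the TBP-related factor TRF2, and its element overlaps the sequence bound by the insulator protein BEAF-32. Many transcription factors leave chromatin at mitosis while some sites stay occupied, which is the setting in which total and mitotic cells are compared. The X of Drosophila melanogaster is an acrocentric chromosome, and its coordinates run from the telomere towards the centromere.

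DREF peaks were spread over the whole assembled X, with a crowded stretch near its centromeric end. The mitotic peaks averaged 9.64 ± 3.99 and the total peaks 15.5 ± 6.58 in a bin of 1 Mb (SD, n = 22 whole bins). A bin held 4 to 19 mitotic peaks with a median of 9, and 7 to 29 total peaks with a median of 15, so no whole bin of the X lacked DREF in either list. The first peak from the telomere was a shared site at 139433 to 140461, which scored 9.33 in the mitotic list and 7.63 in the total list. The last mitotic peak paired with a total peak at 21476283 to 21477271, and the last total peak lay at 22409019 to 22409952.

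**Figure D1:**
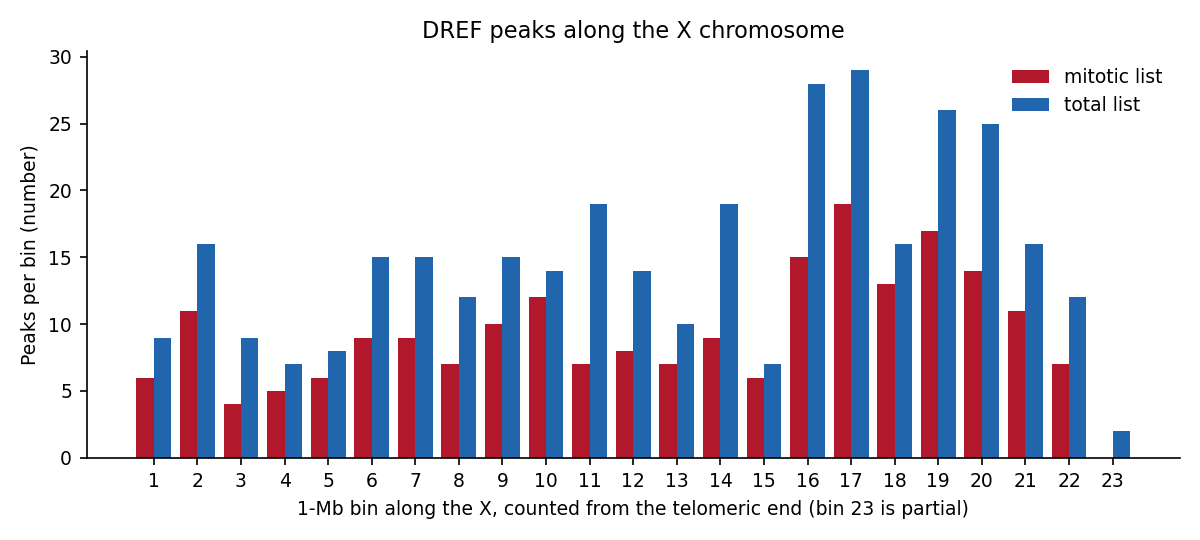
Number of DREF peaks in each 1-Mb bin of the X, in order from the telomeric end, with mitotic peaks (red bars) left of total peaks (blue bars). Bins 16 to 20 hold 78 mitotic and 124 total peaks, and the partial bin 23 holds 0 mitotic and 2 total peaks.

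The proximal part of the chromosome held more peaks than the distal part, and measures of strength gave no single direction. The first 11 Mb held 86 mitotic and 139 total peaks, and the following 11 Mb held 126 mitotic and 202 total peaks. The median mitotic score was 11.08 in the distal 11 Mb and 10.28 in the proximal 11 Mb, and the median total score was 5.75 in the distal and 5.84 in the proximal part. Peaks of the strongest 20% of the whole total list made up 27.3% of total peaks distally and 23.3% proximally. The share of total peaks with a mitotic partner was 61.9% (53.3 to 70.0%) in the distal and 61.9% (54.8 to 68.6%) in the proximal part. The median gap between neighbouring total peaks was 44.8 kb distally and 21.1 kb proximally.

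The most crowded stretch ran from 15000001 to 20000000 and was picked out after the counts were seen. It made up 22.3% of the X up to its last peak, and it held 36.8% of the mitotic and 36.2% of the total peaks. Its 78 mitotic and 124 total peaks came to 15.6 and 24.8 per Mb, and the median gaps were 33.1 kb in the mitotic and 15.9 kb in the total list. The 15 Mb before it held 7.73 mitotic and 12.6 total peaks per Mb. In the 2 Mb after it, up to 22000000, the numbers fell back to 9 and 14 per Mb. Within it the bins from 15000001, 16000001, 18000001 and 19000001 held 28, 29, 26 and 25 total peaks, whereas the bin from 17000001 held 16. The crowding did not come with stronger peaks. The median total score was 5.83 in the stretch and 5.81 in the 15 Mb before it, and peaks from the strongest 20% of the whole total list made up 21.8% of its peaks against 26.5% before it. Sharing was 62.1% (52.9 to 70.7%) in the stretch and 61.4% (54.0 to 68.4%) before it. On the other arms the fullest 5 neighbouring bins held 62 total peaks on 2L, 99 on 2R, 73 on 3L and 82 on 3R. Those were 28.8%, 28.9%, 24.3% and 20.7% of the peaks of their arm, on 22.4%, 23.7%, 20.4% and 17.9% of its length.

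On the scale of 100 kb the sites were unevenly dealt out. Of 224 tiles of 100 kb, 104 held no mitotic peak and 75 held no total peak. The total list had 55 tiles with 1 peak, 42 with 2, 24 with 3 and 15 with 4. The 13 tiles with at least 5 total peaks, up to 7, held 71 of the 343 total peaks (20.7%) and 46 of the 212 mitotic peaks.

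The densest window of 100 kb, at 16480727 to 16578421, held 6 mitotic and 9 total peaks. Its total scores reached from 3.44 to 8.53, with a median of 4.86, and 1 of its peaks was in the strongest 20% of the list. The next window, at 15689834 to 15786665, held 4 mitotic and 8 total peaks with total scores of 3.30 to 8.61. The following window, at 19491232 to 19578301, held 5 mitotic and 8 total peaks with total scores of 3.15 to 10.06, and 3 of these were in the strongest 20%. Each of these windows lay in the crowded stretch. Each mixed shared and total-only sites, and their gaps ran from 1239 to 31464 bp. The highest count in any 100-kb window was 6 on 2L, 8 on 2R, 6 on 3L and 9 on 3R.

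Between the crowded places the X had long stretches without a listed DREF peak. The longest stretch without a total peak was 689.7 kb, from 2338522 to 3028224, and the mitotic list was empty over nearly the same interval (689.9 kb). It was bounded by shared sites on both sides, with mitotic scores of 11.04 and 24.84 and total scores of 6.82 and 15.63. The next lay at 11923534 to 12390684 (467.2 kb) and at 13740457 to 14141093 (400.6 kb). The strongest peak of the X stood at the border of another, since 363.1 kb without a total peak followed it from 8571565 on. Such stretches were not particular to the X. The longest between total peaks was 998.2 kb on 2L, 807.7 kb on 2R, 1278.3 kb on 3L and 479.5 kb on 3R. Between mitotic peaks it was 998.4, 509.7, 776.3 and 642.8 kb, in the same order.

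Of the 4 longest stretches without a mitotic peak, 3 held total peaks without a mitotic partner, and the other was the stretch from 2338331 that both lists leave empty. The longest, 839.2 kb from 4579045 to 5418283, held 3 total peaks with scores of 3.01 to 4.83. The second, 703.8 kb from 11687069 to 12390854, held 3 total peaks with scores of 3.30 to 5.49. The fourth, 510.4 kb from 13630738 to 14141185, also held 3 total peaks, with scores of 3.38 to 7.40, among them the strongest total-only peak of the X. The longest total stretch was thus empty in both lists, whereas each of these others held 3 total peaks. Much of their length could still lack both kinds of peak. The stretches of 703.8 and 510.4 kb enclosed the stretches of 467.2 and 400.6 kb without a total peak.

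Neighbouring peaks on the X were closer together than those on the arms of chromosomes 2 and 3, in both lists. The median gap on the X was 63.1 kb in the mitotic list (interquartile range 20.8 to 133.8 kb), against 84.3 kb on those arms (32.8 to 176.7 kb). In the total list it was 29.1 kb on the X (10.6 to 86.3 kb) and 40.9 kb on those arms (16.9 to 93.1 kb). 2R was near the X in this, with median gaps of 63.6 kb in the mitotic and 33.2 kb in the total list. The upper quartile of its total gaps was smaller, at 76.0 kb. 2R also had more total peaks per Mb than the X, 16.2 against 15.5, though fewer mitotic peaks per Mb, 9.14 against 9.64. Close spacing was thus not particular to the X. Gaps under 2 kb made up 23 of 342 on the X (6.73%) and 52 of 1251 on the arms of chromosomes 2 and 3 (4.16%). That difference was 2.57 percentage points, with a Newcombe 95% interval of 0.0343 to 5.88, and the share was 3.27% on 2L, 3.80% on 3R, 4.39% on 2R and 5% on 3L. Gaps over 200 kb made up 7.02% on the X and 8.07% on those arms, a difference of −1.06 points (−3.85 to 2.44). For short gaps the lower limit of the difference thus lay barely above 0. The X's own interval, 4.31 to 9.92%, includes the shares of 2R and 3L. The X also had more total peaks per Mb than those arms together, 15.5 against 13.1, and short gaps were not compared at equal density. A difference in long gaps was not detectable. The 5 gap and score classes compared in this way were not adjusted for their number, and peaks along an arm are not independent.

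**Figure D2:**
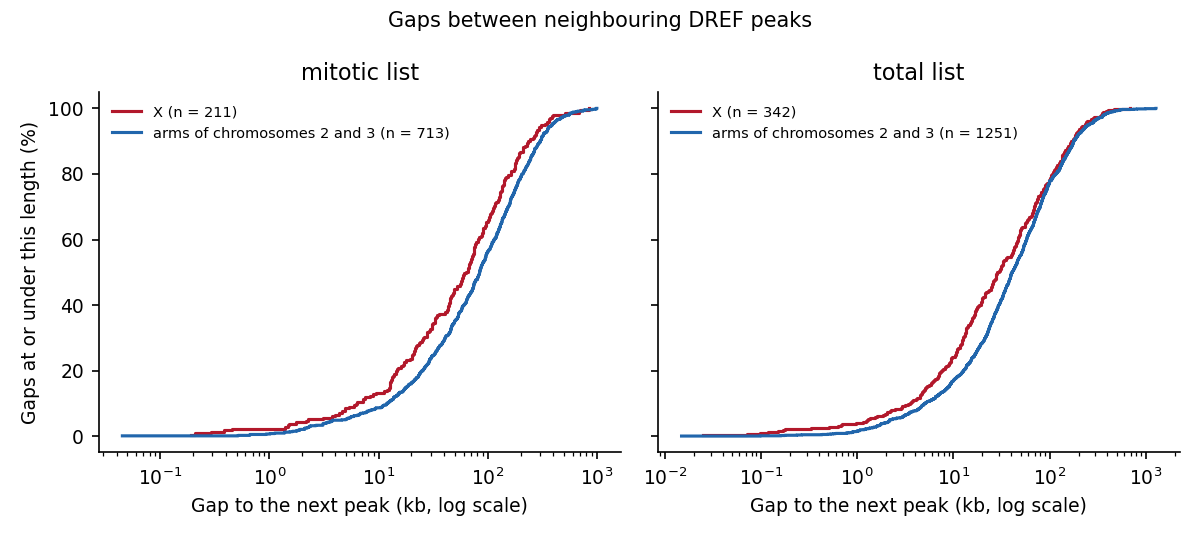
Cumulative share of gaps between neighbouring peaks (%) against gap length (kb, log scale) for the mitotic list (left) and the total list (right), with the X in red and the arms of chromosomes 2 and 3 in blue. The X curve lies to the left through the middle of both panels, with medians of 63.1 against 84.3 kb and of 29.1 against 40.9 kb.

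The closest neighbours were nearly touching. The smallest gap was 25 bp, between shared peaks at 16861207 to 16862187 and 16862213 to 16863255. Their scores were 10.85 and 9.71 in the mitotic list and 6.85 and 7.66 in the total list. At 8980456 to 8984005, 3 shared peaks followed each other with gaps of 146 and 72 bp, with mitotic scores of 9.63, 9.71 and 11.04 and total scores of 7.26, 7.75 and 9.89. Another close pair, 98 bp apart, had a total-only peak scoring 3.56 at 19219614 to 19220430. Beside it stood a shared peak with scores of 12.76 in the mitotic and 7.95 in the total list.

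Larger chains were rare. With gaps under 5 kb as links, 253 peaks stood by themselves, 36 groups held 2 peaks and 6 groups held 3. None of these groups on the X held more than 3. A difference in sharing by crowding was not detectable at this scale. The share was 57.8% (46.9 to 68.1%) of the 90 peaks with a neighbour under 5 kb away, 62.3% (55.2 to 68.9%) of the 204 with the nearest at 5 to 50 kb, and 65.3% (50.4 to 78.3%) of the 49 beyond 50 kb. These intervals overlap. The median total score was 5.61, 5.87 and 6.07 in these classes, in the same order.

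Of the 212 mitotic peaks of the X, 211 overlapped a total peak by at least 1 bp (99.5%, 97.4 to 99.99%), against 98.1% of mitotic peaks in all sequences. Of the 343 total peaks, 211 had a mitotic partner (61.5%, 56.1 to 66.7%), against 56.1% in all sequences, and these are called shared below. The other 132 are called total-only. No total peak of the X spanned 2 mitotic peaks, so the pairing was 1 to 1. On the arms of chromosomes 2 and 3 the share was 56.2%, and the X was higher by 5.34 percentage points (Newcombe 95% interval −0.573 to 11.0). This interval includes 0, whereas against all other sequences the difference was 6.56 points with an interval of 0.776 to 12.1. Among single arms the share was 56.7% on 2L, 55.1% on 2R, 52.2% on 3L and 59.8% on 3R. The X had the highest share of the 5 arms. Its interval overlaps that of each other arm, least that of 3L (46.4 to 57.9%). Such overlap does not show that shares are equal, and no interval was computed for the difference from a single arm. On each arm 97.4 to 99.5% of mitotic peaks had a total partner. The share of total peaks therefore nearly follows the ratio of mitotic to total peak numbers there, and it does not measure retention apart from list length.

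The single mitotic-only peak of the X lay at 17199393 to 17199992. It was 600 bp wide and had a mitotic score of 8.38, which ranked 167 of 212. The nearest total peak was 115741 bp away, and shared sites with total scores of 7.78 and 6.85 flanked it.

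Which sites of the X were shared followed their total score. Shared peaks had a median total score of 7.66 (interquartile range 5.87 to 9.77) and total-only peaks one of 4.63 (3.76 to 5.04). The strongest total-only peak scored 7.40 and the weakest shared peak 3.38. By that definition the 116 X peaks above 7.40 were all shared and the 19 below 3.38 were all total-only. In the band between, 95 of 208 were shared. It is not stated whether the lists were called on separate reads.

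The score bands were fixed on the whole total list, each with 20% of its peaks. In the weakest 20% (scores of 1.80 to 4.19) 4 of 51 X peaks were shared (7.84%, 2.18 to 18.9%), against 12.1% (8.44 to 16.7%) on the arms of chromosomes 2 and 3. In the next band 19 of 71 were shared (26.8%), against 26.5% on those arms. In the middle band (5.06 to 6.16) it was 39 of 68 (57.4%, 44.8 to 69.3%), against 55.5% (49.0 to 61.8%). In the fourth band 64 of 68 were shared (94.1%), against 92.3%. In the strongest 20% (8.35 and above) all 85 were shared, as were all 228 on those arms, and 0 of 85 without a partner allows a share of up to 3.53% when the limit is set at 3 counts of the total. Within every band the intervals of the X and of the other arms overlap.

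**Figure D3:**
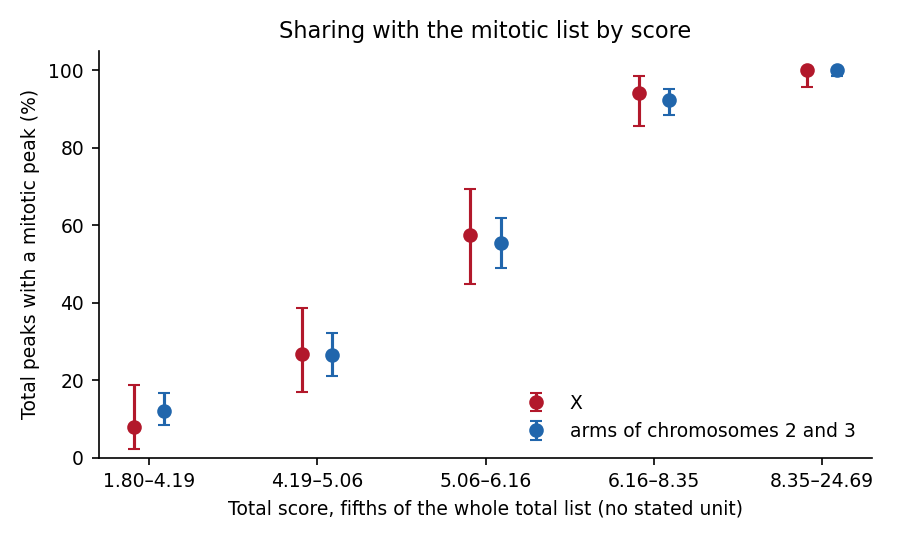
Share of total peaks with a mitotic partner (%) in 5 score bands that each hold 20% of the whole total list, for the X (red, left) and the arms of chromosomes 2 and 3 (blue, right), with exact 95% intervals. The X climbs from 7.84% in the weakest to 100% in the strongest band, and both sets of intervals overlap in each band.

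The X and the other arms did differ in how many peaks fell in the outer bands. Peaks of the strongest 20% made up 85 of 343 on the X (24.8%, 20.3 to 29.7%) and 228 of 1255 on the arms of chromosomes 2 and 3 (18.2%, 16.1 to 20.4%). The difference was 6.61 points (Newcombe 95% interval 1.79 to 11.9). Peaks of the weakest 20% made up 14.9% on the X and 21.0% on those arms, a difference of −6.17 points (−10.3 to −1.48). The arms themselves were unlike each other, however, with 22.5% of 3R, 17.9% of 3L, 16.7% of 2L and 14.3% of 2R peaks in the strongest 20%, so the X stood at the upper end of a range. The weakest 20% likewise held 16.3% of 2L, 19.7% of 3R, 21.9% of 3L and 24.8% of 2R peaks, so 2L was close to the X. Median total scores differed little, with 5.81 on the X, 5.81 on 2L, 5.38 on 2R, 5.41 on 3L and 5.72 on 3R.

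The strongest site of the X lay at 8570418 to 8571564 and had scores of 35.34 in the mitotic and 21.16 in the total list. It stood apart, with 69.5 kb to the nearest total peak. The second was at 1846600 to 1847746, with scores of 30.61 in the mitotic and 19.95 in the total list. The third was at 13457219 to 13458275, with scores of 34.09 in the mitotic and 19.68 in the total list.

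The fourth, at 11588507 to 11589667, had 32.37 in the mitotic and 19.11 in the total list. The fifth, at 18133013 to 18134099, had the highest mitotic score of the X, 38.84, with 18.59 in the total list. Its end was the same to the base pair in both lists. The sixth, at 18737128 to 18738170, had 27.42 in the mitotic and 18.18 in the total list. These strong sites were thus spread over the chromosome and not gathered in the crowded stretch.

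The remaining 4 of the 10 strongest lay at 1406416 to 1407584, 19745560 to 19746741, 20630946 to 20632231 and 10661761 to 10663134. Their mitotic scores were 27.61, 33.28, 29.90 and 30.92, and their total scores 17.20, 17.04, 16.87 and 16.82, in the same order. The 10 sites fell in 8 different bins, and their nearest total peak was 2.92 to 69.5 kb away, with a median of 13.1 kb. Of the 10 strongest mitotic peaks of the X, 9 paired with these 10 total peaks. A strong site was no guide to its neighbour: the total scores of adjacent peaks had a Spearman rho of −0.03 over 342 neighbouring pairs, given as a description.

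**Figure D4:**
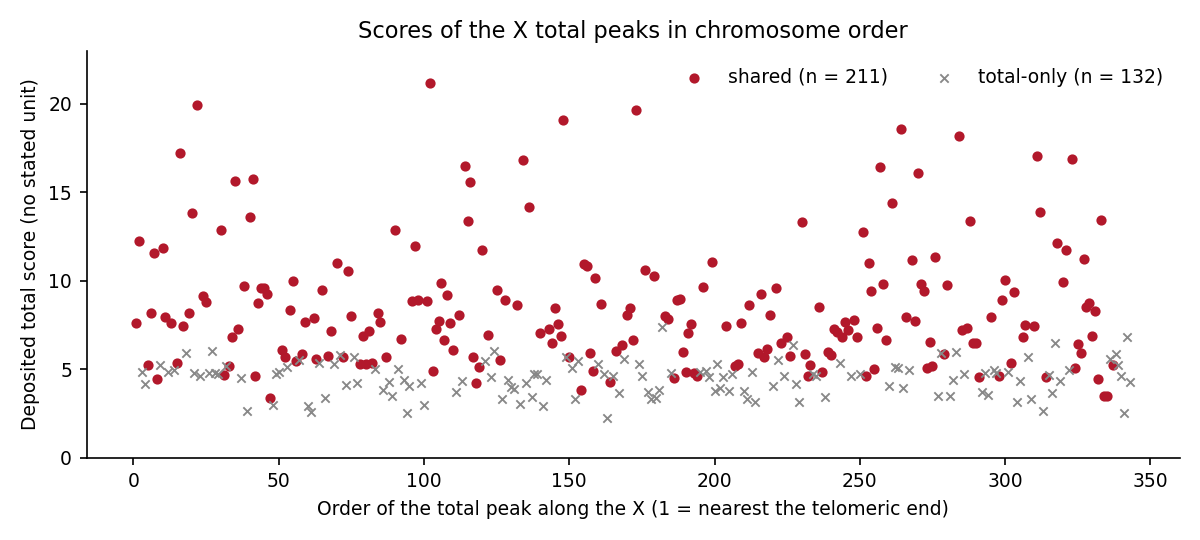
Deposited total score (no stated unit) of the 343 X total peaks in their order along the chromosome from the telomeric end, with shared peaks as red circles (n = 211) and total-only peaks as grey crosses (n = 132). Peaks with scores above 7.40 are all shared and are found along the whole order, and the last 6 peaks are total-only.

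The strongest total-only peak lay at 13739479 to 13740456 with a score of 7.40, at the border of a stretch of 400.6 kb without a total peak. The next were at 22226197 to 22227210 (score 6.82) and at 20127974 to 20128984 (score 6.50). The weakest shared peaks were at 4578278 to 4579080, with scores of 5.90 in the mitotic and 3.38 in the total list, at 21228545 to 21229742 (6.66 and 3.47) and at 21244614 to 21245573 (5.90 and 3.47). The mitotic scores of the X began at 5.90, so 2 of these 3 sites had the lowest score of the mitotic list on the X.

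Shared and total-only sites alternated along the X in 81 runs of each kind. Of the runs of shared peaks 36 held 1 peak and 12 held 5 or more. Of the runs of total-only peaks 48 held 1 peak and 1 held 5 or more. The longest run of shared peaks had 13 members from 20630946 to 21245573, with total scores of 3.47 to 16.87. It was followed by a run of 10 from 8499869 to 9449076, which holds the strongest site of the X. Runs of 9 lay at 14732806 to 15227851, 17545856 to 17722085 and 18215071 to 18530024. The longest run of shared peaks was 7 on 2L, 8 on 2R, 9 on 3L and 14 on 3R.

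The longest run of total-only peaks had 6 members and closed the chromosome, from 21482106 to 22409952. Their scores were 5.87, 5.23, 4.65, 2.54, 6.82 and 4.31 in that order. The next longest had 4 members each, at 2052563 to 2136554 with scores of 4.71 to 6.04 and at 15604088 to 15643668 with scores of 3.76 to 5.29. The centromeric end of the assembled X thus held the longest series of sites without a mitotic partner on this chromosome. The longest total-only run was 5 peaks on 2L, 8 on 2R, 8 on 3L and 6 on 3R.

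By bins, sharing ranged from 36.8% to 85.7% among the 17 whole bins with at least 10 total peaks, with a median of 60.0%. The lowest was the bin from 10000001 to 11000000, where 7 of 19 were shared (36.8%, 16.3 to 61.6%), and the highest the bin before it, from 9000001 to 10000000, where 12 of 14 were (85.7%, 57.2 to 98.2%). The median total score was 4.74 in the first and 7.12 in the second of these bins. The intervals overlap. The bin from 3000001 to 4000000 had the highest median total score, 9.71, over only 7 peaks, of which 5 were shared.

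The paired peaks of the X matched closely in place and in rank. The mitotic peak did not reach past its total peak on either side in 210 of 211 pairs (99.5%, 97.4 to 99.99%). It began a median of 69 bp inside the total start and ended a median of 69 bp inside the total end. The same start was used in 32 pairs (15.2%, 10.6 to 20.7%), and the same end in 23 (10.9%, 7.04 to 15.9%). Both borders were identical in 3 pairs, at 6417950 to 6418972, 9783499 to 9784265 and 13181570 to 13182470. Over the 211 pairs the scores had a Spearman rho of 0.92 and a Pearson r of 0.95, given as a description over sites whose lists are not stated to rest on separate reads. The mitotic score was the higher number in 208 of the 211 pairs, on scales not stated to be common. The 3 exceptions lay at 5631547 to 5632553 (9.29 in the mitotic and 10 in the total list), at 15186513 to 15187560 (7.24 and 7.57) and at 1453806 to 1454803 (7.25 and 7.46).

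Mitotic peaks were a little narrower than total peaks, with a median of 913 bp (387 to 1688 bp) against 1013 bp (701 to 2285 bp). The widest total peak, at 5418172 to 5420456 (2285 bp, score 6.07), had a mitotic partner of 991 bp with a score of 13.37. It closes the longest stretch without a mitotic peak. The narrowest, at 3634732 to 3635432 (701 bp), was total-only with a score of 2.63. Shared total peaks had a median width of 1043 bp and total-only peaks one of 963 bp, and over all 343 peaks total score and width had a Spearman rho of 0.46, again as a description.

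**Figure D5:**
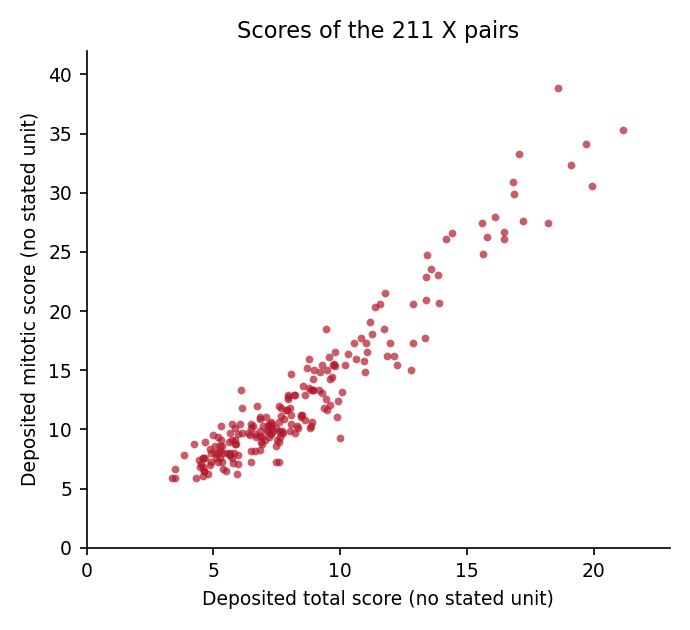
Deposited mitotic score against deposited total score (both without a stated unit) for the 211 X pairs, each point a site. The points rise together (Spearman rho 0.92), and the highest mitotic score, 38.84, belongs to the fifth strongest total peak with 18.59.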

How the data were processed

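DREF ChIP-seq of Kc167 cells was represented by 1 deposited peak list for each condition, mitotic and total, with 2 libraries behind each. The submitters' processing notes name Bowtie 0.12.5. How peaks were called, on which genome build and at which threshold, and whether libraries were pooled, is not given in the sources read for this work. The authors deposited 1 score per peak, with no stated unit. The sequence names are those of Release 5, whereas the available gene table was of Release 6, without a genome, so no peak was given a gene, no motif was searched and no sequence is shown. Starts are printed counted from 1.

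Peaks were paired by an overlap of at least 1 bp. Bins of 1 Mb and tiles of 100 kb count peaks by their start and end at the last total peak. Gaps run from the end of a peak to the start of the next. Differences of shares carry Newcombe 95% intervals. With no values per library no test was made. The overlap and interval code was tested on simulated data. Most sites named by coordinates follow a rule set with the design. The fourth stretch without a mitotic peak, the stretch of 363.1 kb without a total peak and the first and last peaks of the X were named outside it. The 15 to 20 Mb stretch, the groups linked by gaps under 5 kb and the observations at the end were chosen after seeing the data. The members, bins and measures were chosen with earlier results of these data known. Computation used pandas 2.3.3, numpy 2.4.6 and scipy 1.17.1 under Python 3.11.15, with plots by matplotlib 3.10.9.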

Additional observations from a re-analysis of the deposited data

How the results depend on the processing

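Of 35 alternative values for 12 results on the X, 29 stayed within the interval of a share or within 1.5 times of a gap, density or score difference, 6 moved beyond it and 0 changed sign. Some of those that stayed could hardly move, so their number is no measure of stability. A mean per Mb barely depends on the bin length. With 210 of 211 pairs nested and the pairing 1 to 1, the 50% overlap rule and the limit to single partners changed nothing. With the total list reduced to its strongest peaks, as many as the mitotic list holds, 86.7% of X total peaks had a mitotic partner and 85.8% of X mitotic peaks a total partner. With the stronger 50% of each list the X had 5.27 mitotic and 8.32 total peaks per Mb, and median gaps of 132 kb in the mitotic and 68.4 kb in the total list, since fewer peaks were counted. In that stronger 50%, 35.9% of X total peaks still fell between 15000001 and 20000000. This alternative was added after seeing the data. The excess of the X in sharing was 3.77 points with the stronger 50% of each list (Newcombe 95% interval −4.37 to 11.5). Against all other sequences it was 6.56 points (0.776 to 12.1), an interval that does not include 0, unlike that against the arms of chromosomes 2 and 3. The median quotient of mitotic to total score over X pairs was 1.499 and reached 1.57 with the stronger 50% of each list, but the scores have no stated common scale. No paired analysis was possible because the 2 libraries of a condition are represented by 1 list, which also prevents leaving a library out. Depth is unknown, so a site absent from a list may lie below its detection limit.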

Other observations

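Where the arms approach their centromeres, the last sites before the end were total-only on some arms and shared on others. On the X the 6 total peaks nearest the centromere had no mitotic partner, and on 2R and 3L it was the nearest 4 on each, whereas on 2L and 3R it was 0. At the telomeric ends the number was 0 on the X, 2L and 2R and 1 on 3L and 3R. This was noticed in the data and was not tested.

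In the terminal part of the X, 4 total peaks followed each other at nearly even distances. They began at 21476283, 21482106, 21488198 and 21494322, which are 5823, 6092 and 6124 bp apart. The first was shared, with a total score of 5.26, and the others were total-only with scores of 5.87, 5.23 and 4.65. Among the 340 runs of 4 neighbouring total peaks on the X this was the 1 run whose 3 start-to-start distances differed by at most 10%. What sequence lies under them was not examined here.

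The sequence XHet, which collects heterochromatic sequence of the X, held 0 mitotic peaks and 1 total peak, at 195775 to 197127, with a score of 3.98.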
